A study of Rattus norvegicus with 36 samples.

Results

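The mitochondrial fatty acid oxidation enzymes described here are 10 genes: Cpt1a, Cpt1b, Cpt2, Acadvl, Acadl, Acadm, Hadha, Hadhb, Eci1 and Decr1. They were found as probe sets whose only gene symbol in the array's annotation is a listed name, and they are 10 of the 14217 genes that the array measures with such a probe set. The 10 genes have 14 probe sets. For each gene the probe set with the highest mean over the 36 arrays was used, and the other 4 probe sets (1 more for Cpt1a, 1 more for Eci1 and 2 more for Hadha) served as a check.

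The samples are liver RNA of male Sprague Dawley rats, 7 weeks old at the start, on Affymetrix 3′ expression arrays. Rats received TBPH, a brominated phthalate ester used as a flame retardant, by gavage in corn oil at 5 ml/kg on 5 days, and part of the left lobe was collected 1 day later. The 6 groups of 6 arrays each are the vehicle group and 5 dosed groups, given 706, 70.6, 7.06, 0.71 or 0.07 mg/kg, and the vehicle, strain, sex, diet and schedule were the same in all of them. The question set by the design is which transcripts differ between vehicle and each dose. Replicates carry numbers in the labels, with no word on whether each came from its own rat, so every p-value below reflects array-to-array spread that may in part be technical.

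Mitochondrial fatty acid oxidation burns long fatty acids to acetyl-CoA. Carnitine palmitoyltransferases bring the acyl chain across the mitochondrial membranes, acyl-CoA dehydrogenases of different chain length preference start each round of shortening, and the trifunctional protein completes the round for long chains. Auxiliary enzymes deal with unsaturated chains. In liver the pathway is known for supplying energy and ketone bodies in fasting, and many of its genes are targets of the nuclear receptor PPAR alpha, which some phthalate esters activate in rodents.

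Values are log2 RMA values, a scale on which a difference of 1 is a doubling of the probe signal. Array medians ran from 5.06 to 5.14, and the median over the whole table was 5.09. Any pair of arrays correlated at 0.987 or more. The tissue label was checked with 8 hepatocyte markers: albumin (Alb) averaged 14.76, transthyretin (Ttr) 14.33 and tyrosine aminotransferase (Tat) 9.32. On 2 arrays the 3′ probe set of the GAPDH control exceeded the 5′ one by more than on the others, a sign of shorter or less evenly copied RNA: the log2 difference was 0.41 for 70.6 mg/kg replicate 5 and 0.33 for 0.07 mg/kg replicate 4, against -0.18 to 0.09 elsewhere. Correlations and counts that moved clearly without these arrays are given both ways. Probe sets bind with unequal strength, so the level of 1 gene is not ranked against that of another.

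No member passed the test at any dose. Of 50 differences from vehicle (10 members at 5 doses), none had a limma p below 0.05 after Benjamini-Hochberg adjustment over 31042 probe sets, and the background was the same: 0% of all probe sets were called at 706, 70.6, 7.06, 0.71 or 0.07 mg/kg, for the slope over dose rank (0%) or for any difference among the 6 groups (0%). At an unadjusted limma p under 0.05 the share of all probe sets was 3.48% at 706 mg/kg, 5.24% at 70.6, 3.48% at 7.06, 3.98% at 0.71 and 3.07% at 0.07 mg/kg, and 2.54% for any difference among the groups. Among the 10 members this level was reached by 2 at 706 mg/kg (Eci1 and Acadvl), by 0 at each of the lower doses and by 1 for any difference (Eci1). All doses were compared with the same 6 vehicle arrays, so these counts are not independent of each other. Exact permutation p-values (two-sided) in the paragraphs on single members are unadjusted and are given only where under 0.05. That test was run on the members' probe sets alone, so it has no share over all probe sets. At 706 mg/kg it also gave 0.83 (Cpt1a), 0.31 (Cpt1b), 0.34 (Cpt2), 0.10 (Acadm), 0.27 (Hadha), 0.52 (Hadhb) and 0.59 (Decr1). In bulk tissue, fewer cells of a type and less RNA per cell cannot be told apart.

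**Figure D1:**
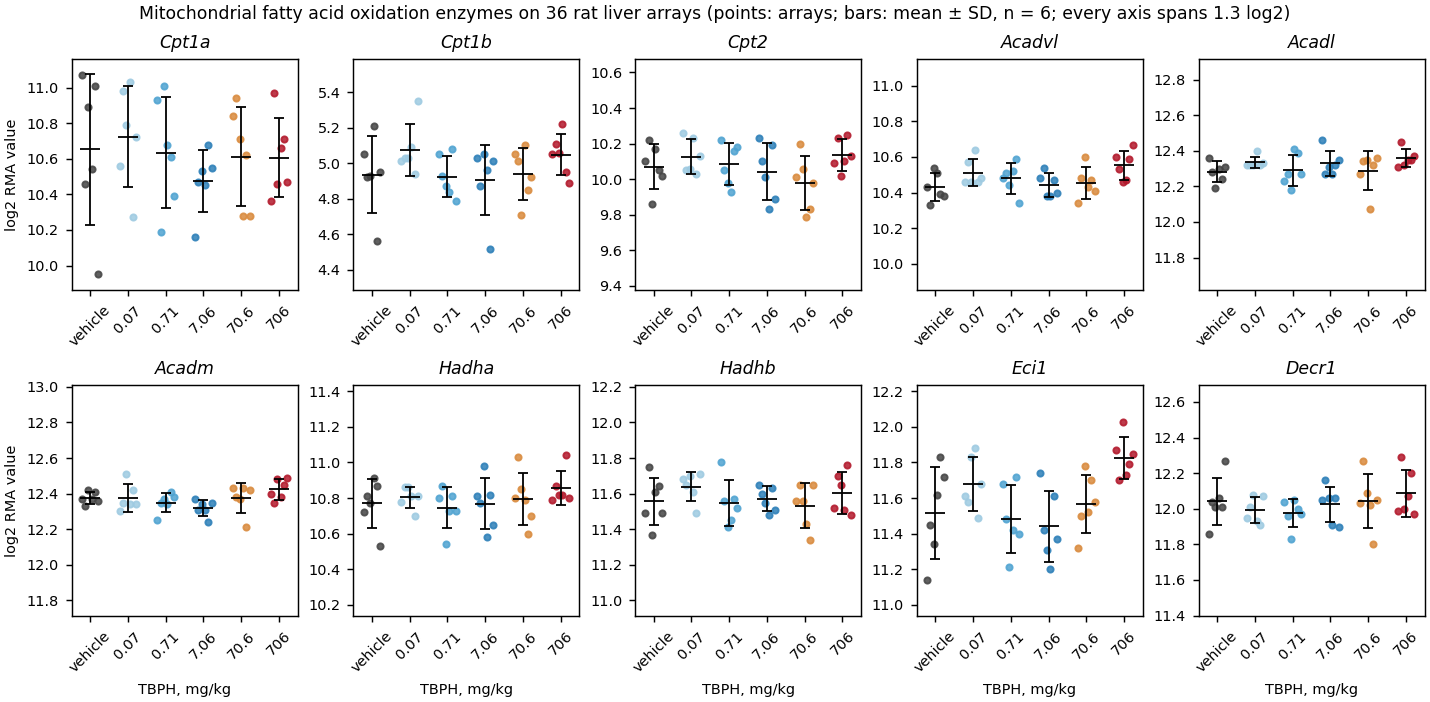
Log2 RMA value (vertical axis, each spanning 1.3) of the 10 enzymes on every array (points) by TBPH dose in mg/kg, with the mean and SD of each group of 6. Groups overlap for every gene at every dose; Cpt1a spreads most, with 9.95 to 11.07 in the vehicle group, and Acadm least.

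The entry step showed the widest spread between arrays and no dose difference that passed. Cpt1a is the liver form of the outer membrane transferase, the step at which malonyl-CoA limits entry of fatty acids. Its log2 value ran from 9.95 through a median of 10.72 to 11.07 in the vehicle group and from 10.36 through 10.57 to 10.97 at 706 mg/kg. The 706 mg/kg arrays all lay inside the vehicle range. The difference was -0.05 (95% interval -0.37 to 0.28, n = 6 against 6, limma adjusted p = 0.9995). The group means lay between 10.47 at 7.06 mg/kg and 10.72 at 0.07 mg/kg. Neighbours in that order differed by less than the SD within the groups, which was 0.17 to 0.43. The second Cpt1a probe set gave -0.07 at 706 mg/kg and followed the chosen one closely (r = 0.96 within groups).

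Cpt1b is the muscle form of the same transferase. It was dim, with a mean of 4.97 over all arrays, close to the median of all values in the table. The vehicle arrays ran from 4.56 through 4.94 to 5.21 and the 706 mg/kg arrays from 4.89 through 5.06 to 5.22, and 1 of the latter lay just above the vehicle range. The difference was 0.11 (-0.07 to 0.30, limma adjusted p = 0.9995). Of the 8 muscle markers, creatine kinase (Ckm) averaged 3.78, myosin light chain (Myl1) 2.98 and myoglobin (Mb) 2.93, while the probe set named Myh1 averaged 11.53.

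Cpt2, the inner membrane transferase that hands the chain back to coenzyme A, read 9.86, 10.08 and 10.22 (lowest, median, highest) in the vehicle group and 10.02, 10.12 and 10.25 at 706 mg/kg, where 2 arrays passed the highest vehicle array. The difference was 0.07 (-0.09 to 0.22, limma adjusted p = 0.9995). Its lowest group mean was 9.98 at 70.6 mg/kg and its highest 10.14 at 706 mg/kg, with group SDs of 0.09 to 0.16.

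The 3 acyl-CoA dehydrogenases varied little between arrays. Acadvl acts on very long chains and sits on the inner membrane. Its vehicle arrays read 10.33, 10.41 and 10.54 and its 706 mg/kg arrays 10.46, 10.56 and 10.67. Of the 6 arrays at 706 mg/kg, 3 lay above the highest vehicle array and 6 above the vehicle mean, and the groups overlapped. The difference was 0.12 (0.01 to 0.23), a 1.09-fold higher signal, with an unadjusted limma p of 0.027, an exact permutation p of 0.0303 (two-sided) and an adjusted limma p of 0.9995. With the GAPDH 3′ to 5′ difference as a covariate it was 0.10 (-0.0013 to 0.20).

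Acadl, for long chains, read 12.19, 12.29 and 12.36 in the vehicle group and 12.31, 12.35 and 12.45 at 706 mg/kg. The upper arrays at 706 mg/kg passed the vehicle range and the lower ones lay within it. The difference was 0.08 (-0.02 to 0.18, limma adjusted p = 0.9995), with an unadjusted limma p of 0.123 and an exact permutation p of 0.0260 (two-sided). Acadm, for medium chains, read 12.33, 12.37 and 12.42 in the vehicle group and 12.35, 12.43 and 12.49 at 706 mg/kg. Its difference was 0.05 (-0.04 to 0.14, limma adjusted p = 0.9995), and its group means ran only from 12.32 at 7.06 mg/kg to 12.42 at 706 mg/kg. At 7.06 mg/kg its difference was -0.06 (-0.15 to 0.04), with 0 of 6 arrays above the vehicle mean, an unadjusted limma p of 0.226 and an exact permutation p of 0.0281 (two-sided).

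Hadha and Hadhb encode the alpha and beta subunits of the trifunctional protein, which hydrates, oxidises and cleaves long chains. Hadha read 10.53, 10.79 and 10.91 in the vehicle group and 10.79, 10.82 and 11.04 at 706 mg/kg, where 1 array lay above the vehicle range. Its difference was 0.08 (-0.06 to 0.23, limma adjusted p = 0.9995). Hadhb read 11.37, 11.55 and 11.75 in the vehicle group and 11.48, 11.58 and 11.76 at 706 mg/kg, a difference of 0.05 (-0.09 to 0.18, limma adjusted p = 0.9995). The other 2 Hadha probe sets were dim (means of 4.18 and 3.30) and did not follow the chosen one (r = -0.13 and 0.12 within groups). The brighter of them had 0.25 (0.08 to 0.43) at 0.07 mg/kg, with 5 of 6 arrays above the highest vehicle array, an unadjusted limma p of 0.00611, an exact permutation p of 0.0130 (two-sided) and an adjusted limma p of 1.00. At 706 mg/kg it had 0.14 (-0.03 to 0.32), with 4 of 6 arrays above the highest vehicle array. The unadjusted limma p was then 0.109 and the exact permutation p 0.04545 (two-sided). At 70.6, 7.06 and 0.71 mg/kg its difference was 0.05, 0.11 and 0.14.

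The auxiliary enzymes held the largest difference of the members. Eci1 is the enoyl-CoA isomerase that shifts double bonds so that unsaturated chains can continue. Its vehicle arrays read 11.14, 11.54 and 11.83 and its 706 mg/kg arrays 11.70, 11.82 and 12.03. At 706 mg/kg 3 of 6 arrays lay above the highest vehicle array and 6 of 6 above the vehicle mean, and the other 3 lay within the vehicle range. The difference was 0.31 (0.10 to 0.52), a 1.24-fold higher signal (1.07 to 1.43). The unadjusted limma p was 0.0050 and the exact permutation p 0.0216 (two-sided), and the adjusted limma p was 0.9995. The other group means followed no order of dose: 11.68 at 0.07, 11.48 at 0.71, 11.44 at 7.06 and 11.57 at 70.6 mg/kg. The second Eci1 probe set, which is dim (mean 4.24), ran the other way, with -0.11 at 706 mg/kg and r = -0.53 with the chosen one within groups. The chosen Eci1 probe set carries the _s_at suffix, which Affymetrix gives to probe sets that can match more than a single transcript.

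Decr1, the dienoyl-CoA reductase of the same branch, read 11.86, 12.03 and 12.27 in the vehicle group and 11.97, 12.04 and 12.29 at 706 mg/kg. The groups overlapped, with 1 array at 706 mg/kg above the vehicle range, and the difference was 0.04 (-0.09 to 0.18, limma adjusted p = 0.9995).

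**Figure D2:**
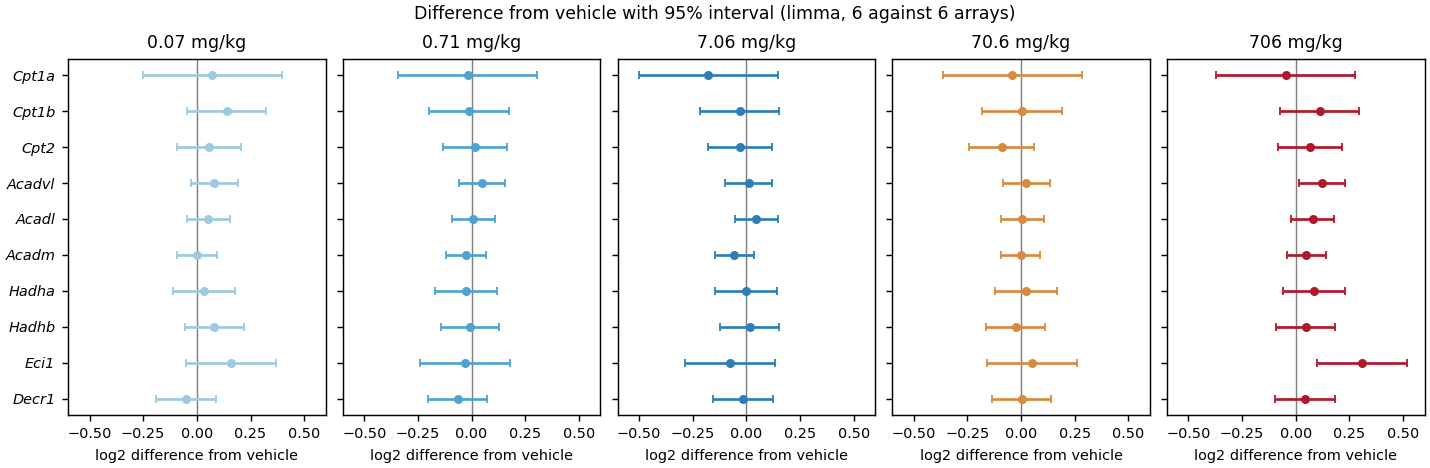
Log2 difference from vehicle (horizontal axis) of the 10 enzymes at each dose, with 95% intervals from limma. At 706 mg/kg the intervals of Eci1 (0.10 to 0.52) and Acadvl (0.01 to 0.23) lie above 0; at the lower doses each interval holds 0.

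Across the 10 members, 9 were higher and 1 lower than vehicle at 706 mg/kg, with a median difference of 0.07. The median over all genes was 0.01, and 53.1% of genes were higher. Of the markers of stellate cells and fibroblasts, 8 of 8 lay above vehicle at this dose, with a median of 0.14 and 0 called. At 0.71 mg/kg 7 of these 8 markers lay above vehicle (median 0.23) and at 7.06 mg/kg 6 (0.11). At 70.6 mg/kg 3 of these markers did (-0.03) and at 0.07 mg/kg 4 (0.01). Their mean level ran from 6.43 to 7.73 over the vehicle arrays and from 7.15 to 7.38 at 706 mg/kg, and their part in the members' differences was not tested. The members' median was 0.00 at 70.6 mg/kg (6 higher, 4 lower), -0.02 at 7.06 (3 and 7), -0.01 at 0.71 (3 and 7) and 0.06 at 0.07 mg/kg (8 and 2). The lowest and the highest dose thus had the larger medians. Over dose rank 7 members sloped up and 3 down, with a median of 0.01 log2 per dose step. Over all members and doses the 95% intervals reached from -0.50 (Cpt1a at 7.06 mg/kg) to 0.52 (Eci1 at 706 mg/kg).

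The other genes of the pathway were equally without calls at 706 mg/kg. Of 12 genes of fatty acid activation and the carnitine shuttle, 8 were higher and 4 lower (median 0.05) and 0 passed. Slc27a2, a fatty acid transporter and acyl-CoA synthetase, had 0.06 and the acyl-CoA synthetase Acsl4 had 0.10. Of 18 other mitochondrial beta-oxidation enzymes, 15 were higher and 3 lower (median 0.04) and 0 passed. The values with the smallest p were 0.22 for the mitochondrial thioesterase Acot2 and 0.17 for the short-chain dehydrogenase Acads, both with an adjusted limma p of 0.9995.

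Of 12 peroxisomal beta-oxidation genes, 10 were higher and 2 lower (median 0.06) and 0 passed; the bifunctional enzyme Ehhadh had 0.21 and the isomerase Ech1 0.26. Of 12 fasting and PPAR alpha responsive genes, 8 were higher and 4 lower (median 0.02) and 0 passed. The uncoupling protein Ucp3 had -0.13 and the fatty acid hydroxylase Cyp4a1 had 0.17. Of 14 regulators 7 were higher and 7 lower (median 0.00), with 0.18 for the receptor Rxra and 0.10 for Esrra. Of 3 ketone body genes 2 were higher and 1 lower (median 0.03), with 0.05 for Bdh1, which makes beta-hydroxybutyrate, and 0.03 for Acat1. Of 15 genes that mark mitochondrial content, 8 were higher and 7 lower (median 0.00), with 0.09 for Cox4i1 and -0.19 for Cox5a, both subunits of cytochrome c oxidase. At 0.07 mg/kg the 18 beta-oxidation enzymes were again 15 higher and 3 lower (median 0.05). Activation and shuttle genes were 10 and 2 (0.06) at that dose, and peroxisomal genes 9 and 3 (0.05). At 70.6, 7.06 and 0.71 mg/kg the 18 enzymes were 14 and 4, 13 and 5, and 11 and 7. Activation and shuttle genes were 5 and 7, 7 and 5, and 9 and 3 there. Peroxisomal genes were 6 and 6, 3 and 9, and 5 and 7.

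The members differed in how much they varied from array to array within a dose group. Cpt1a had a within-group SD of 0.29, more than 95.4% of all probe sets, and spanned 2.18-fold over the 36 arrays. Eci1 followed with an SD of 0.19 and a 1.85-fold span. At the other end, the 3 dehydrogenases had SDs of 0.08 (Acadvl), 0.07 (Acadl) and 0.06 (Acadm), and Acadm spanned 1.23-fold. Bright probe sets vary less on these arrays: the median SD was 0.10 for the 1493 probe sets with a mean of 10 or more and 0.15 for all. Among those bright probe sets, 94.8% had a smaller SD than Cpt1a, 27.7% than Acadvl, 19.3% than Acadl and 9.78% than Acadm. Cpt2, Hadha, Hadhb and Decr1 lay between 0.11 and 0.13.

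Members were then compared with each other within groups, by taking each group's mean off every value, so that any dose difference drops out. The 45 pairs had a median Pearson r of 0.14, and 71.1% of the pairs were above 0, against 50.4% of all pairs of genes. Of the 45 pairs, 4 (8.89%) had an r of 0.5 or more, while 2.16% of the 101054436 pairs of genes did. Among genes with a mean of 10 or more, where 9 of the 10 members lie, that share was 6.44%. Of the pairs of such bright genes 54% were above 0, and their median r was 0.03. The 4 pairs all join 2 of Cpt2, Hadha, Hadhb and Decr1. Pairs named below were mostly picked for the highest or lowest r of the 45. Their permutation p-values are not adjusted for that choice.

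**Figure D3:**
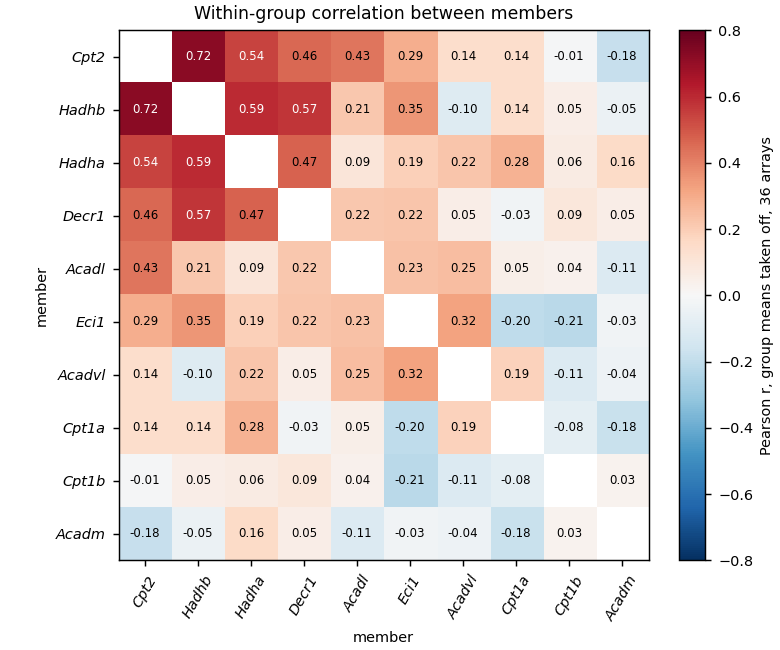
Pearson r between the 10 enzymes over 36 arrays with group means taken off (colour and printed value). Cpt2, Hadhb, Hadha and Decr1 form a block with r of 0.46 to 0.72; Acadm has r between -0.18 and 0.16 with every other member, with all 36 arrays in.

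Cpt2 and Hadhb were the pair most alike. Their r was 0.72 (rho 0.72), with a permutation p of 1e-05 for each, the smallest that 100000 shuffles within groups can give. The r was positive in 6 of 6 groups, with 0.85 in the vehicle group, 0.30 at 0.07, 0.79 at 0.71, 1.00 at 7.06, 0.83 at 70.6 and 0.58 at 706 mg/kg. In limma fits over all other probe sets with the 6 group means kept, the adjusted p was 0.0316 with Cpt2 as the covariate and 0.0166 with Hadhb. This was the single pair of members called in both directions. Without the 2 arrays farthest from the median of Cpt2 r was 0.68, and without the 2 arrays of high GAPDH difference it was 0.72. The larger of the adjusted p-values rose above 0.05 on leaving out vehicle replicate 2 (0.0775), vehicle replicate 3 (0.0874), 0.71 mg/kg replicate 1 (0.0591), 70.6 mg/kg replicate 5 (0.0557) or 706 mg/kg replicate 5 (0.0620). Cpt2 ranked 8th of 14216 genes in likeness to Hadhb, and Hadhb 11th in likeness to Cpt2.

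The subunits Hadha and Hadhb had an r of 0.59 (rho 0.63, permutation p 0.00063 and 0.00018). It was positive in 6 of 6 groups, from 0.47 in the vehicle group to 0.82 at 706 mg/kg. The adjusted limma p was 0.0516 with Hadha as the covariate and 0.0862 with Hadhb, so the pair was not called. Without the 2 arrays of high GAPDH difference r was 0.54, and without the 2 arrays farthest from the median of Hadha it was 0.58. The adjusted limma p-values were 0.1095 and 0.2066 without the arrays of high GAPDH difference. With that difference as a covariate they were 0.1177 and 0.2424. Subunits of 1 enzyme were not each other's nearest genes: Hadha ranked 74th in likeness to Hadhb and Hadhb 162nd in likeness to Hadha.

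The 2 subunit genes lie head to head. Their RefSeq start sites on rat build GRCr8 are 301 bases apart, with Hadhb on the minus strand and Hadha on the plus strand, so that a short stretch outside both genes is upstream of each. It is shown because these are the members that share a promoter region as well as an enzyme. It covers chr6:31907558-31907750 on the plus strand, 193 bases with 53.4% G or C, and the capitals mark a GC box. Only the part shared by both RefSeq promoter windows (250 bases before a start and 50 after) and outside either annotated gene was taken. Bases next to each start that the windows were set from are thus neither shown nor searched.

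Hadhb to Hadha, upstream of both: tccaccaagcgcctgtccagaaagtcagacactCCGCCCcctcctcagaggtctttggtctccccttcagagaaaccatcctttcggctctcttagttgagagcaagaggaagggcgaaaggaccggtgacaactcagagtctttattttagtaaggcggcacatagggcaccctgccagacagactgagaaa

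The search covered the GC box GGGCGG (reverse CCGCCC) and the CCAAT box (CCAAT, reverse ATTGG) on both strands, letters chosen after the correlations were seen. The GC box was found 1 time, at position 34 from the left end, and the CCAAT box 0 times. In the 193 bases directly before each start, 28.3% of 33469 RefSeq promoters held a GC box and 28.4% a CCAAT box. Those windows have the length of the stretch shown but another position, since that stretch reaches neither start that the promoter windows were set from. Among 481 measured gene pairs whose RefSeq promoter windows overlap on opposite strands, a set also chosen after the correlations were seen, the median r was 0.12 and 50 pairs (10.4%) had 0.5 or more. Of these pairs 22 (4.57%) were at or above the r of Hadha and Hadhb, that pair included. Among the 10 of these pairs in which both genes have a mean of 10 or more, as Hadha and Hadhb do, the median r was 0.39 and 4 pairs had 0.5 or more.

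**Figure D4:**
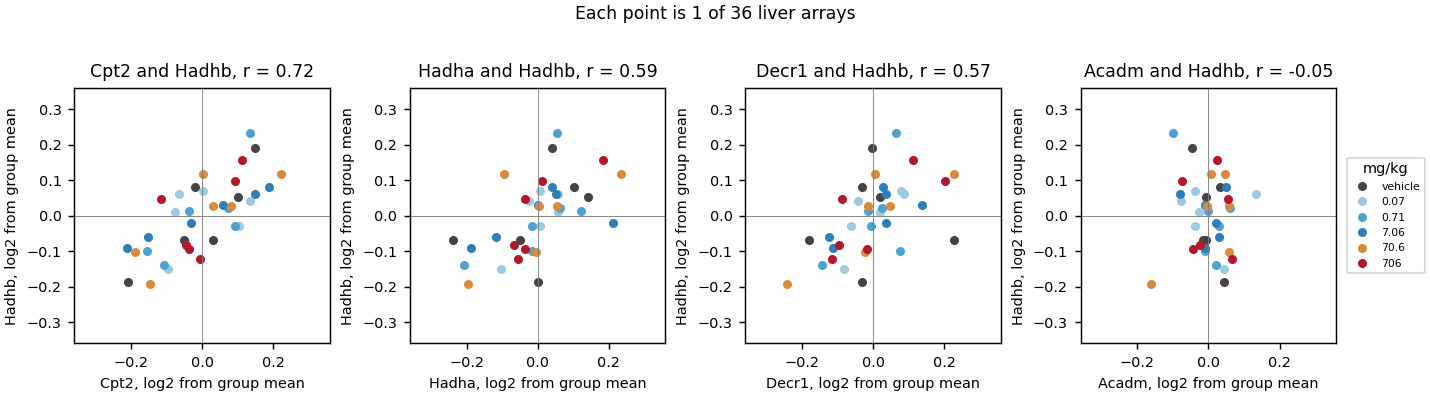
Values of 4 pairs on 36 arrays as log2 distance from the group mean, coloured by dose in mg/kg. Hadhb rises with Cpt2 (r = 0.72), Hadha (0.59) and Decr1 (0.57), while its r with Acadm is -0.05 (-0.31 without the 2 arrays of high GAPDH difference).

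The other pairs of this block were less firm. Hadhb and Decr1 had an r of 0.57 (rho 0.61, permutation p 0.00132 and 0.00031), near 0 in the vehicle group (0.04) and 0.55 to 0.85 at the 5 doses. Each r within a group rests on 6 arrays and is imprecise, and vehicle was not tested against the doses. Over all groups r was 0.50 without the 2 arrays of high GAPDH difference, and neither adjusted limma p passed (0.114 and 0.447). Without vehicle replicate 6 the adjusted limma p-values were 0.0517 and 0.111. They were 0.285 and 0.885 without the 2 arrays of high GAPDH difference, and 0.280 and 0.998 with that difference as a covariate. Cpt2 and Hadha had 0.54 (rho 0.53, permutation p 0.00326 and 0.00323), positive in 5 of 6 groups. Hadha and Decr1 had 0.47 (rho 0.58, permutation p 0.012 and 0.00081), with -0.50 in the vehicle group and 0.65 to 0.93 at the 5 doses. It was 0.64 without vehicle replicate 6 and 70.6 mg/kg replicate 2, the arrays farthest from the median of Hadha, and 0.40 without the 2 arrays of high GAPDH difference. Without vehicle replicate 6 alone this pair was called in limma. Cpt2 and Decr1 had 0.46 (rho 0.44, permutation p 0.0105 and 0.0119), positive in 4 of 6 groups. With all 36 arrays none of these 3 pairs passed in limma, where the adjusted p-values were 0.0821 to 0.537.

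The lowest pairs were weakly negative. Cpt1b and Eci1 had an r of -0.21 (rho -0.09, permutation p 0.298 and 0.625), Cpt1a and Eci1 -0.20 (rho -0.22, permutation p 0.33 and 0.249) and Cpt2 and Acadm -0.18 (rho -0.23, permutation p 0.328 and 0.181). Pairs with Acadm moved without the 2 arrays of high GAPDH difference: r was then -0.37 with Cpt2, -0.31 with Hadhb, -0.25 with Decr1 and -0.02 with Hadha. The isoforms Cpt1a and Cpt1b had -0.08 (rho -0.02, permutation p 0.708 and 0.934). Cpt1a, which varied most, had no r above 0.28 with any member (0.28 with Hadha).

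Each member was also set against all 31041 other probe sets within groups. In limma at an adjusted p of 0.05, those called numbered 42 for Cpt2 (0.135%), 820 for Acadvl (2.64%), 495 for Hadha (1.59%) and 88 for Hadhb (0.283%). They numbered 1 for Cpt1a (0.00322%), 1 for Acadl (0.00322%) and 0 (0%) for each of Cpt1b, Acadm, Eci1 and Decr1. At an unadjusted p under 0.05 these last 4 had 3.89%, 13.4%, 4.25% and 8.21% of probe sets. Of the 9 other members, 1 was called for Cpt2 (Hadhb), 1 for Hadhb (Cpt2) and 0 for each of the others.

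The counts depend on single arrays. For Hadha the count was 186 to 267 without vehicle replicate 6, 0.71 mg/kg replicate 2 or 3, 7.06 mg/kg replicate 4, 70.6 mg/kg replicate 2 or 5, or 706 mg/kg replicate 5. For Hadhb it was 36 to 54 without vehicle replicate 2 or 3, 70.6 mg/kg replicate 5, or 706 mg/kg replicate 5 or 6, and 134 to 186 without 0.71 mg/kg replicate 1 or 6 or 70.6 mg/kg replicate 4. For Cpt2 it was 13 to 20 without vehicle replicate 2 or 3, 0.07 mg/kg replicate 1, or 706 mg/kg replicate 3 or 5. For Acadm it was 427 without 0.07 mg/kg replicate 1, against 0 with all arrays, and 1 to 8 without vehicle replicate 2 or 3, 0.71 mg/kg replicate 5, 7.06 mg/kg replicate 1 or 5, or 706 mg/kg replicate 5. For Decr1 it was 12 without vehicle replicate 6 and 2 without 706 mg/kg replicate 2.

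Hadha varied with other mitochondrial enzymes. The genes most like it were Pccb (r = 0.83, adjusted p = 0.00162 by limma), a subunit of propionyl-CoA carboxylase, Etfdh (0.83, 0.0105), which passes electrons from the acyl-CoA dehydrogenases to ubiquinone, and the peptidase Apeh (0.80, 0.0105). Of the 15 mitochondrial content genes 12 had a positive r with Hadha and 5 were called, with a median r of 0.50 against 0.00 over all genes. Among these were Atp5f1a, a subunit of ATP synthase (r = 0.79), and Sdha of succinate dehydrogenase (0.68). The 15 genes averaged 10.81 in the vehicle group, and bright genes are alike more often than all genes. A median r with Hadha over bright genes alone was not taken. Of the 18 other mitochondrial beta-oxidation enzymes 14 were positive and 3 called (median r 0.25). The carnitine carrier Slc25a20 (0.63), the ketone body enzyme Acat1 (0.67) and Cyp4a1 (0.58) were called as well.

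Markers of red blood cells ran against Hadha. All 3 measured markers had a negative r and 1 was called, with -0.56 for Hbb, a haemoglobin chain (limma adjusted p = 0.0408), -0.45 for Alas2, the erythroid enzyme of haem synthesis, and -0.26 for the anion exchanger Slc4a1. Their part in the likeness between Hadha and mitochondrial genes was not tested. The 8 hepatocyte markers had a median r of 0.04 with Hadha. Of 6 Kupffer cell and macrophage markers 1 had a positive r with Hadha (median -0.22), and 0 were called. The red blood cell markers' median r was also negative with Eci1 (-0.28), Hadhb (-0.23), Acadm (-0.20), Decr1 (-0.19) and Cpt2 (-0.14). It was positive with Cpt1a (0.22), Acadl (0.16), Cpt1b (0.09) and Acadvl (0.08).

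Hadhb and Cpt2, themselves alike at r = 0.72, shared neighbours, so genes alike to both are not separate findings for each. Plekha1 was among the 3 genes most like each of them (r = 0.75 with Hadhb and 0.76 with Cpt2). The thioesterase Acot3 (0.76) and the mitochondrial protein Chchd10 (0.75) led the list for Hadhb, and the RNA methyltransferase Nsun2 (0.78) and the ribosomal protein Rpl7a (0.76) that for Cpt2. Citrate synthase (Cs), which marks mitochondrial content, was called with both, at r = 0.70 for each. The PPAR alpha target Vnn1 had an r of 0.73 with Hadhb and 0.65 with Cpt2, the thioesterase Acot1 0.68 and 0.69, and the peroxisomal thioesterase Acot4 0.72 and 0.65, all called by limma. Acot1 was dim (mean 2.74). Thioesterase genes of this family are near-identical copies, so which of them each probe set read is uncertain. Over the 15 mitochondrial content genes the median r was 0.42 with Hadhb (13 positive, 2 called) and 0.33 with Cpt2 (13 positive, 1 called). Over the 12 fasting and PPAR alpha responsive genes it was 0.22 with Hadhb and 0.32 with Cpt2. Markers of other liver cells had medians of similar size: 0.23 with Hadhb (7 of 8 positive) and 0.30 with Cpt2 (8 of 8) for stellate cells and fibroblasts, and 0.30 with Hadhb (3 of 5) and 0.24 with Cpt2 (5 of 5) for sinusoidal endothelium, none called. Their part in these likenesses was not tested.

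**Figure D5:**
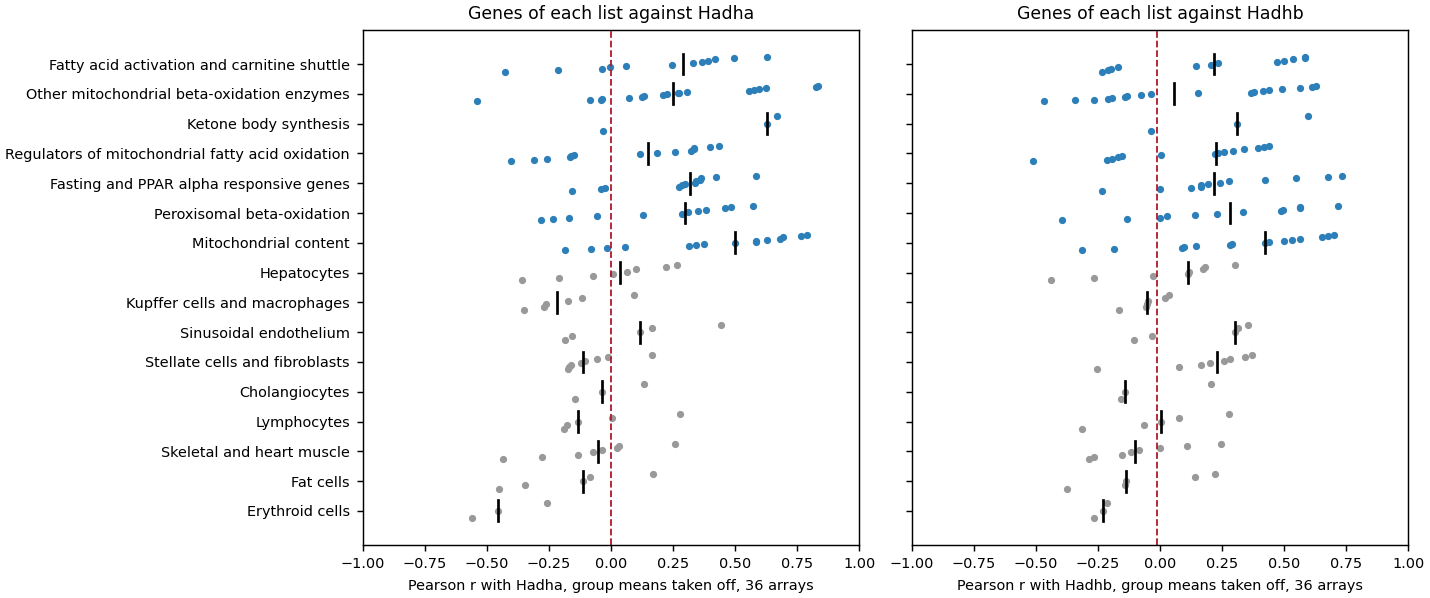
Pearson r of each gene (points) of 7 pathway lists (blue) and 9 cell type marker lists (grey) with Hadha and Hadhb over 36 arrays, group means taken off; black ticks are list medians and the dashed line the median of all genes. Mitochondrial content genes have medians of 0.50 and 0.42, and the red blood cell markers of -0.45 and -0.23.

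Acadvl had the longest list and the least firm one. The genes most like it were Dazap1 (r = 0.77), which encodes an RNA-binding protein, the mitochondrial protease Lonp1 (0.76) and Sbf1 (0.75). Of the other mitochondrial beta-oxidation enzymes 3 of 18 were called with it, among them Acads (0.69) and Acad10 (0.66). The count of 820 fell to 426 without the 2 arrays of high GAPDH difference and to 0 with that difference as a covariate. It was 149 without 0.07 mg/kg replicate 4, which is 1 of those 2 arrays and the highest Acadvl array of its group. It was 120 to 486 without 0.71 mg/kg replicate 5 or 6, 70.6 mg/kg replicate 1 or 3, or 706 mg/kg replicate 3.

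In the Acadvl promoter a match to the PPAR type of response element was found. The motif searched was the half-site AGGTCA present 2 times in the same direction with 1 base between, on both strands, with up to 2 mismatches. It is shown because PPAR alpha is known to bind such repeats, and the capitals mark the half-sites.

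Acadvl, starting 17 bases before the gene's start: AGGTCAgTGGTCA

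The match has 1 mismatch. Of the 7 members with a RefSeq promoter on GRCr8 (300 bases, 250 before the start and 50 after), Acadvl was the one with a match, and 1263 of 33469 promoters (3.77%) held one.

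The remaining members had few or no called neighbours. The genes most like Cpt1a were the mitochondrial coenzyme A carrier Slc25a42 (r = 0.70), the fatty acid elongase Elovl2 (0.70) and Klhdc8a (0.68), with adjusted limma p-values of 0.143, 0.0599 and 0.143. For Cpt1a the call count was 7 without 70.6 mg/kg replicate 2 and 8 without 70.6 mg/kg replicate 5, and 1 to 4 without any other array. Acadl was most like Klrg1 (0.79, limma adjusted p = 0.000736), a receptor of lymphocytes, then Lamtor4 (0.68) and Nipal2 (0.66); its single call was lost without 70.6 mg/kg replicate 4 (0 called), and 4 probe sets were called without 70.6 mg/kg replicate 6. Acadm was most like Oga (0.73), Cep170 (0.71) and Gpn3 (0.69), none called. Decr1 was most like Acat1 (0.68), Il9r (0.68) and Tdp1 (0.65), none called. Eci1 was most like Tma16 (0.61), Crcp (0.58) and Cpe (0.58), and Cpt1b most like Rpl26l1 (0.61), Shc2 (0.60) and Slc7a9 (0.60), none called.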

How the data were processed

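The authors deposited log2 values made by RMA with the affy package, per the submitters' processing notes, which give no versions; a genome build is not given in the sources used here. From the 31099 probe sets, 57 array controls were left out; 20826 of the others have 1 gene symbol, 436 several and 9780 none, and 20758 matched a current Entrez entry. Doses were compared with vehicle in R 4.3.3 by limma 3.58.1, with 36 arrays and 1 mean per group, two-sided, with Benjamini-Hochberg adjustment over 31042 probe sets at 0.05; R/maanova, named in the design text, is not installed here. Likeness within groups was tested in limma with a member's value beside the 6 group means, and by Pearson and Spearman correlation with 100000 shuffles within groups, in Python 3.11.15. A pair of members was called where both directions passed. Scripts were tested on simulated data. The named genes are the members, the 3 genes of highest r with each, and from every list 2 genes with the smallest p, at 706 mg/kg and in each likeness described. The members, lists and tests were chosen with earlier results of these data known. Promoter sequences are RefSeq's for GRCr8. Figures used matplotlib 3.10.9. Arrays give no read depth, and their number limits the precision. Other settings tried were fewer arrays per fit, a replicate block, variance moderation, array weights, dim probe sets, array medians, the GAPDH difference, thresholds, the dose scale, other probe sets and each array left out.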

Additional observations from a re-analysis of the deposited data

Results flagged for a closer look

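In each of 60 groups (10 members in 6 dose groups) the highest and the lowest array were checked against the rest, and 6 groups held an array whose gap to its neighbour was more than 0.625 of the group's range. Chance alone marks about 1 group in 20. Cpt1b read 5.35 on 0.07 mg/kg replicate 6, above the others, and 4.52 on 7.06 mg/kg replicate 5, below them. Acadl read 12.4 on 0.07 mg/kg replicate 4, above the others, and 12.07 on 70.6 mg/kg replicate 4, below them. Acadm read 12.21 on 70.6 mg/kg replicate 5, below the others. Hadha read 11.04 on 706 mg/kg replicate 5, above the others. Of these arrays, 0.07 mg/kg replicate 4 and 70.6 mg/kg replicate 5 are the 2 of high GAPDH 3′ to 5′ difference, whose part was not tested.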

How the results depend on the processing

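Every dose comparison gave 0 called members under every alternative run. Of 2634 differences of the chosen probe sets recomputed, 113 changed sign, 0 of them with an unadjusted p under 0.05; the largest that did was 0.07. Eci1 at 706 mg/kg was 0.23 to 0.37 without single arrays and -0.1125 with its second probe set; the cause was not tested. Pairs of members called numbered 1, and 0 with the replicate block (adjusted p = 0.327 and 0.124 by limma for Cpt2 and Hadhb), 0 at a threshold of 0.01, 2 with brighter probe sets only (adding Hadha and Hadhb) and 0 to 2 without single arrays, 2 without vehicle replicate 6 (adding Hadha and Decr1). The median r of pairs was 0.07 to 0.16 without single arrays. Probe sets called with a member moved as follows. Without group means: Cpt1a 4, Cpt2 17, Acadl 2, Acadm 2, Hadhb 50. With the replicate block: Cpt2 1, Acadvl 166, Acadl 2, Hadha 79, Hadhb 15. Without the 2 arrays of high GAPDH difference: Cpt1a 5, Acadvl 426; with it as a covariate: Acadvl 0. With array medians taken off: Cpt1a 3, Cpt2 123, Acadvl 2624, Acadl 7, Hadha 781. At 0.01, by construction fewer: Cpt2 1, Acadvl 45, Hadha 19, Hadhb 14. With brighter probe sets only: Cpt1a 3, Cpt2 84, Acadvl 1274, Acadm 16, Hadhb 227. Without single arrays: Cpt1a 1 to 8, Cpt2 13 to 57, Acadvl 120 to 1194, Acadl 0 to 4, Acadm 0 to 427, Hadha 186 to 671, Hadhb 36 to 186, Decr1 0 to 12. The causes were not tested. The replicate numbers did not pair the arrays: 17 of 90 same-numbered pairs of arrays correlated above 0.1 and 4 of 36 arrays correlated best with their own number. The block changed no dose call. Low signal limits Cpt1b and the second probe sets of Hadha and Eci1.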
